A study of Mus musculus with 12 samples.

Results

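Potassium channel genes were described here as the 93 genes of the RNA-seq table, of 18208 in all, whose symbols start with Kcn (Kcne2 was left out). The tissue was mouse striatum, 30 min after an injection of methamphetamine or saline. Total striatal RNA (RNA-seq) was measured beside the RNA fragments cross-linked to hnRNP H, an RNA-binding protein, and pulled down with an antibody to it (CLIP-seq). All mice were wild-type C57BL/6J, aged 50 to 100 days, from litters that heterozygous Hnrnph1 mutant males sired with C57BL/6J females. Every mouse was injected with saline on days 1 and 2. On day 3 the saline group received saline again (10 ml/kg) and the methamphetamine group received methamphetamine (2 mg/kg), both intraperitoneally. Each of the 3 replicates per treatment pooled the striata of 4 mice, 2 females and 2 males, and each pool gave both a CLIP and an RNA-seq library. A p-value therefore measures the spread between pools.

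Potassium channels let potassium leave the cell, which holds the membrane near rest, ends action potentials and sets the interval between them. Striatal projection neurons are known for strongly inwardly rectifying channels that keep them silent between cortical inputs, and for an A-type current and the M-current that delay and slow their firing. hnRNP H binds runs of guanine in pre-mRNA and acts on splicing, and many potassium channel genes carry very long introns.

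The genes were grouped by symbol, and a class name need not describe every member. There were 17 pore genes of the Kv1 to Kv4 families (Kcna, Kcnb, Kcnc, Kcnd) and 10 electrically silent Kv subunits (Kcnf, Kcng, Kcns, Kcnv). There were 5 Kv7 genes (Kcnq) and 8 genes of the EAG, ERG and ELK families (Kcnh). The others were 15 inward rectifiers (Kcnj), 14 two-pore leak channels (Kcnk) and 8 genes classed as calcium- or sodium-activated channels (Kcnma, Kcnn, Kcnt, Kcnu). The last class was 16 accessory genes (Kcnab, Kcne, Kcnip, Kcnmb and Kcnrg). CLIP reads were counted by the authors in windows of 100 nt, called positions here. In all, 81 of the 93 genes held 1585 of the 147438 distinct positions. The authors also deposited 1 list of bound positions for each treatment, and 50 of the genes held 121 listed positions on their own strand.

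Stretches of 36 listed positions could be read because they fall in annotated exons or in introns that an annotated transcript retains, and 23 of the 36 hold a run of 3 or more guanines (GGG) while 13 hold none. The 13 below were picked after their letters were seen, to show runs of guanine in genes of several classes beside 4 stretches without any, so they do not stand for the shares with and without. They were read from GENCODE M21 transcripts on GRCm38 and are written on the transcript strand, with every GGG or longer run in capitals. In UTRs, and for the Kcnip2 stretch labelled coding exon, a window of 30 bases within the position is shown. That label is the region type given to the whole position, which the authors' lists type as both coding and intron. The Kcnip2 window was read from a transcript that retains an intron, so whether its 30 bases are coding is not shown. The place of the window differs between positions, and every searched 3′ UTR position that holds GGG has it in its window. The windows therefore do not show how dense such runs are over whole positions. The Kcnip2 stretches, chr19:45796840-45796939 and chr19:45796340-45796439 (minus strand), and the Kcnt1 stretch, chr2:25888835-25888934 (plus strand), have intron at their middle by the region types in the authors' lists.
Kcnip2 intron, position at 45796840: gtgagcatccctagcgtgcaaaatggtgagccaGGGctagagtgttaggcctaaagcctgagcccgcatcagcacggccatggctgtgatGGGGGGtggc
Kcnip2 intron, position at 45796340: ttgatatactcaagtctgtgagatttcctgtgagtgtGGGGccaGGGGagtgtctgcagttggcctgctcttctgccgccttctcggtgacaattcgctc
Kcnt1 intron: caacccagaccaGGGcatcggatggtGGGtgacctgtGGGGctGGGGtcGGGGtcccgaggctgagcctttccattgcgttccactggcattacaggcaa
Kcnma1 coding exon: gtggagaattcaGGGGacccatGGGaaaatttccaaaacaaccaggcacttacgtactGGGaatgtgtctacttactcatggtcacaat
Kcna4 coding exon: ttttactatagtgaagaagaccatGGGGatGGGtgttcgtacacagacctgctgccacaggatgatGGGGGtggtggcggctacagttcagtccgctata
Kcnj13 coding exon: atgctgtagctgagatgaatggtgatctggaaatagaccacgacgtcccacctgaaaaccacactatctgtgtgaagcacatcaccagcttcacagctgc
Kcnj11 5′ UTR window: cacaagctGGGttGGGGGctcagtaagcaa
Kcna1 5′ UTR window: aggctgaGGGtgcGGGGttgctctccGGGa
Kcnj4 3′ UTR window: tggtgttGGGtttGGGtacagaGGGGactc
Kcnip2 coding exon window: gcccccacagaccccgcccgctggacccag
Kcna1 5′ UTR window without GGG: gcattaaggtgatcagagcaggaagaaaaa
Kcnj4 3′ UTR window without GGG: aaatatctataaatggaagagatggagaca
Kcnj3 3′ UTR window: ctagaacttGGGtGGGGGaGGGGttagtaa
The Kcnma1 stretch is chr14:23528432-23528520 (minus strand) and lies in a coding exon of the large-conductance BK channel, the Kcna4 stretch is chr2:107295340-107295439 (plus strand) in the coding exon of an A-type pore, and the Kcnj13 stretch is chr1:87389064-87389163 (minus strand) and holds no GGG. The UTR windows are chr7:46100103-46100132 (Kcnj11, minus strand), chr6:126644168-126644197 (Kcna1, minus strand), chr15:79483815-79483844 (Kcnj4, minus strand) and chr2:55596222-55596251 (Kcnj3, plus strand). The windows without GGG are chr19:45796279-45796308 (Kcnip2), chr6:126643668-126643697 (Kcna1) and chr15:79483976-79484005 (Kcnj4), all on the minus strand.

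RNA-seq depth was 3935160 to 5091839 reads per library, recovered as whole reads from the deposited log2 counts per 1000000 (CPM). CLIP depth was 423057 reads (saline replicate 2) to 1635338 reads (saline replicate 3) in the counted positions. The first principal component of the RNA-seq values held 65.6% of the variance and separated saline replicates 1 and 3 and methamphetamine replicate 2, called set A, from saline replicate 2 and methamphetamine replicates 1 and 3, called set B. CLIP counts gave the same split, with 46.6% of the variance. The sets cut across the treatments and were defined from the data. All 10 markers of striatal projection neurons were detected, at mean levels of 6.93 to 11.15 log2 CPM, and their summed level was 8063, 8906 and 7662 CPM in set A against 6412, 5793 and 5584 CPM in set B. All 10 had lower means after methamphetamine, while means were higher for 6 of 6 astrocyte, 6 of 6 oligodendrocyte, 5 of 5 microglial, 4 of 4 interneuron and 7 of 8 cortical excitatory markers, and limma called none of these. In methamphetamine replicate 2 the summed markers of choroid plexus, an epithelium that lines the ventricles, stood at 4986 CPM, against 65.9 to 231.9 CPM in the other libraries. In bulk tissue fewer cells of a type and less RNA per cell cannot be told apart.

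Per kilobase of exon, the potassium channel gene with the highest RNA level was Kcnj4, which encodes a strong inward rectifier, at 7.15 log2 CPM per kb. Its library values were 8.51, 8.16 and 8.39 log2 CPM after saline and 7.87, 8.31 and 8.30 log2 CPM after methamphetamine, so the groups overlapped. Genes of high level after it included Kcnip2 (5.98 log2 CPM per kb), the calcium-sensing partner of A-type channels, Kcnab2 (5.87), a cytoplasmic beta subunit of Kv1 channels, Kcna1 (5.58), an axonal Kv1 pore, Kcnk1 (5.56), a two-pore leak channel, Kcnh3 (5.38), an ELK-type channel of forebrain neurons, and Kcnab1 (5.06), another beta subunit. From Kcnip2 downward the steps between the genes named here were no larger than the range of either gene over the 6 libraries. Kcnj4 stood clear of Kcnip2, by more than either gene's range.

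Within the classes, genes of high mean log2 CPM (not scaled to length) were as follows. Among Kv1 to Kv4 pores they included Kcnc1 (7.84), the fast-spiking Kv3 pore, and Kcna1 (7.83). Kv7 genes, whose products carry the M-current, included Kcnq3 (7.65) and Kcnq5 (6.63). The leading EAG, ERG and ELK genes were Kcnh3 (7.91), Kcnh1 (6.83) and Kcnh2 (6.13). Inward rectifiers were led by Kcnj4 (8.26), Kcnj10 (6.93), the astrocyte channel that buffers potassium, and Kcnj9 (5.78), a subunit of G protein-gated GIRK channels. Two-pore channels were led by Kcnk2 (7.22), a mechanically and thermally gated leak channel, Kcnk1 (6.72) and Kcnk3 (4.56), an acid-sensitive one. Among calcium- and sodium-activated channels the leaders were the sodium-activated Kcnt1 (7.69), the BK pore Kcnma1 (6.64) and the small-conductance Kcnn3 (5.50). Silent subunits, which form channels only with other Kv pores, reached 6.61 (Kcnf1), 6.40 (Kcng1) and 5.61 (Kcns2), and accessory genes 8.35 (Kcnab2), 8.17 (Kcnab1) and 7.78 (Kcnip2). At the other end, 19 of the 93 genes had 3 reads or fewer in at least 1 library, and 75 had a mean above 1 log2 CPM.

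**Figure D1:**
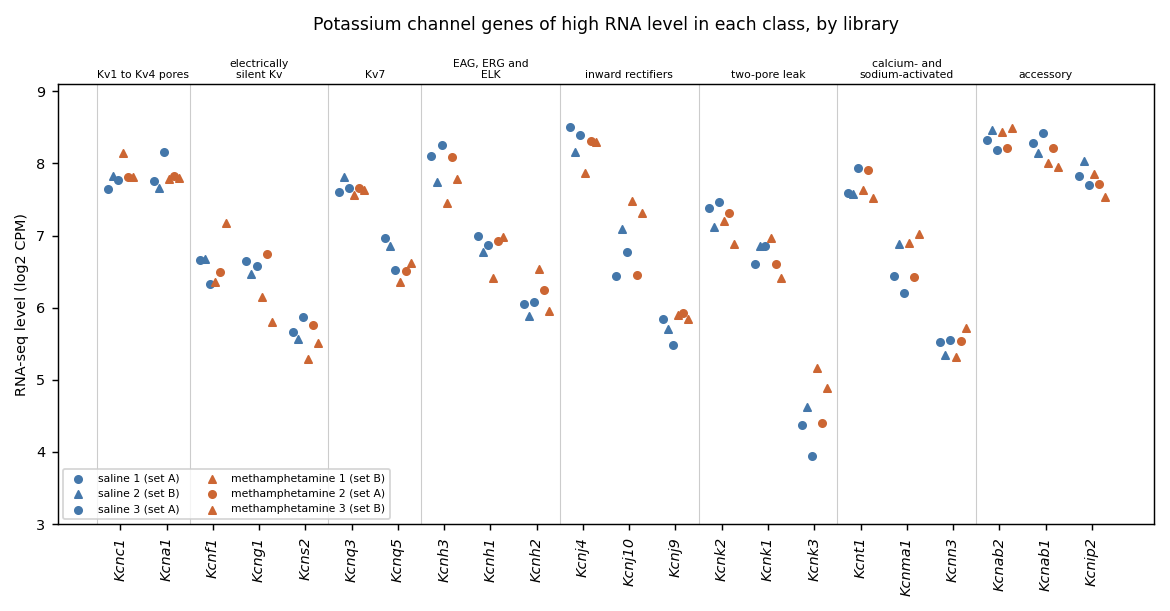
RNA level in each of the 6 RNA-seq libraries (vertical axis, log2 CPM) for 2 or 3 genes of high level in each of the 8 classes. Colour gives the treatment and shape the library set, and of these genes only Kcnj9 has every methamphetamine point above every saline point, the nearest pair by less than the plot resolves.

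No potassium channel gene changed after methamphetamine at an adjusted p below 0.05 (limma, Benjamini-Hochberg over 18208 genes; lowest adjusted p among the 93 genes 0.99983). The same test called 0% of all genes. At an unadjusted p below 0.05 there were 2 of 93, both lower (Kcnj1 and Kcnh5), beside 1.52% of all genes. Changes were centred near 0, with 44 genes higher and 49 lower and a median log2 change of -0.022, against 0.0020 over all genes. The methamphetamine libraries all lay above the saline libraries for 1 gene (2.44% of all genes) and all below for 4 genes (3.58% of all genes). The unadjusted count rested on which pools were kept: it was 12 without saline replicate 2 and 9 without methamphetamine replicate 2, and between 0 and 1 without any other replicate. Over all genes the shares without those 2 replicates were 5.10% and 5.26%, and 1.05% to 2.02% without any other replicate. None passed the adjusted threshold in those fits. edgeR on the recovered reads also called 0, with 1 of 75 tested genes at an unadjusted p below 0.05 (0.82% of all genes). Reads of Kcnmb3 and Dkk4 were identical in every library, and exons of 26 of the 93 genes overlap a gene on the opposite strand. Whether the RNA-seq counting used strand is not given in the sources used here.

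Kcnj1, an inward rectifier best known from kidney, had the lowest unadjusted p, and it was at the edge of detection, with 3, 4 and 3 reads for saline and 0, 1 and 2 for methamphetamine. Its fitted log2 change of -1.87 ± 0.71 (SE; limma, unadjusted p = 0.0263) rests on these few reads. Kcnh5, an EAG-type pore, stood at 5.41, 5.08 and 5.21 log2 CPM after saline and 4.90, 4.93 and 4.59 log2 CPM after methamphetamine. The groups did not overlap, and the log2 change was -0.43 ± 0.19 (limma, unadjusted p = 0.0457). Within set A it was -0.38 and within set B -0.34. Both genes missed the adjusted threshold.

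The Kv1 pores that make A-type and delayed-rectifier channels held 3 of the 5 lowest-ranked genes. Kcna4 stood at 6.26, 5.98 and 6.09 log2 CPM after saline and 5.62, 5.93 and 5.70 after methamphetamine, a log2 change of -0.36 ± 0.16 with groups that did not overlap. Kcna5 stood at 6.31, 5.86 and 6.37 after saline and 5.45, 6.06 and 5.75 after methamphetamine, with groups that overlapped. Kcna7, sparse at 12, 12 and 15 reads for saline and 12, 9 and 6 for methamphetamine, completed the 3. The unadjusted limma p-values were 0.0554, 0.0758 and 0.103. Kcna1 and Kcna2, the Kv1 pores that share channels with Kcna4 in axons, had overlapping groups, at 7.66 to 8.16 and 6.64 to 7.47 log2 CPM over the 6 libraries.

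The 5 genes that ranked highest among those with higher values after methamphetamine were Kcnk3, Kcnmb4, Kcnc2, Kcnc4 and Kcnh7. Kcnk3 stood at 4.37, 4.62 and 3.95 log2 CPM after saline and 5.16, 4.40 and 4.88 after methamphetamine (log2 change 0.50 ± 0.26, limma, unadjusted p = 0.0877). Kcnmb4, the neuronal beta subunit of BK channels, stood at 5.22, 5.49 and 5.28 after saline and 5.59, 5.44 and 6.05 after methamphetamine (0.36 ± 0.20). The groups of both genes overlapped. Kcnc2, a Kv3 pore of fast-spiking interneurons, ranged most widely, at 4.20, 5.71 and 3.56 after saline and 6.01, 4.52 and 5.74 after methamphetamine (0.93 ± 0.54). Kcnc4 stood at 4.67, 5.02 and 3.78 against 4.85, 4.79 and 5.54, and Kcnh7, an ERG-type pore, at 3.44, 4.87 and 3.14 against 4.58, 4.07 and 4.75. For each of these 5 genes the 3 libraries of set A had lower values than the 3 of set B.

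Genes chosen for their known part in striatal neurons showed small differences against their spread. Kcnd2, the pore of the A-type current of projection neurons, stood at 7.27, 7.28 and 7.33 log2 CPM after saline and 7.08, 7.11 and 7.32 after methamphetamine (log2 change -0.12 ± 0.15). Its partner Kcnip2 stood at 7.82, 8.03 and 7.70 against 7.85, 7.72 and 7.53 (-0.15 ± 0.17). The treatments overlapped for both genes. Kcnab1 stood at 8.28, 8.14 and 8.42 against 8.0, 8.21 and 7.95 (-0.23 ± 0.16). Among the GIRK subunits, Kcnj9 was the 1 gene of the 93 with every methamphetamine library above every saline library, at 5.84, 5.71 and 5.48 after saline and 5.90, 5.92 and 5.84 after methamphetamine (0.21 ± 0.16, limma, unadjusted p = 0.229). The nearest saline and methamphetamine values were equal at this rounding, so the separation was slight. Its partner Kcnj6 varied widely within both treatments, at 3.71, 4.03 and 2.12 against 3.99, 3.38 and 4.79, and the astrocyte gene Kcnj10 stood at 6.44, 7.09 and 6.77 against 7.48, 6.46 and 7.31.

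The remaining GIRK and strong inward rectifier genes also overlapped between the treatments. Kcnj3, the subunit that most neuronal GIRK channels share, stood at 4.64, 5.32 and 4.23 log2 CPM after saline and 5.45, 4.59 and 5.29 after methamphetamine (0.38 ± 0.32), and the set A values were again the lower ones. Kcnj2, a strong inward rectifier like Kcnj4, stood at 4.54, 4.89 and 4.32 against 4.52, 4.03 and 4.46 (-0.24 ± 0.23). Kcnj4 had a log2 change of -0.19 ± 0.19. Of the leak channels, Kcnk2 stood at 7.38, 7.12 and 7.46 against 7.20, 7.31 and 6.88 (-0.19 ± 0.17), with set A above set B.

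The calcium-activated BK pore Kcnma1 stood at 6.44, 6.88 and 6.21 log2 CPM after saline and 6.89, 6.42 and 7.02 after methamphetamine (log2 change 0.27 ± 0.23), lower in every set A library than in every set B library. The small-conductance gene Kcnn2 stood at 4.60, 4.77 and 4.90 against 4.84, 4.96 and 4.60, and the sodium-activated Kcnt1 at 7.59, 7.57 and 7.93 against 7.63, 7.91 and 7.52. These were level between treatments to within the spread of the pools. Kcnc1 stood at 7.65, 7.83 and 7.77 against 8.14, 7.81 and 7.81 (0.17 ± 0.16). Of the M-current genes, Kcnq3 stood at 7.60, 7.81 and 7.66 against 7.56, 7.66 and 7.63, and Kcnq5 at 6.96, 6.86 and 6.52 against 6.35, 6.51 and 6.62 (-0.29 ± 0.17). Saline and methamphetamine values overlapped for each of these genes.

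By class, 8 genes had higher and 9 lower means after methamphetamine among Kv1 to Kv4 pores, 3 and 7 among silent subunits, 1 and 4 among Kv7 genes, 3 and 5 among EAG, ERG and ELK genes, 7 and 8 among inward rectifiers, 7 and 7 among two-pore channels, 5 and 3 among calcium- and sodium-activated channels, and 10 and 6 among accessory genes. None of these classes held a gene past the adjusted threshold. With plain library totals in place of the deposited scaling the split over the 93 genes was 53 higher and 40 lower, and the median over all genes moved to 0.085, so the direction of small changes such as these depends on the scaling.

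The library sets separated more of these genes than the treatments did. The sets were defined by the first principal component of these same RNA values, so a wider separation by set follows from that definition. All set A libraries lay above all set B libraries for 18 of the 93 genes (18.9% of all genes) and below for 21 (19.9% of all genes), so the share was near that of genes in general. The differences were large for some. Kcnk18, a two-pore channel best known from sensory neurons, stood at 2.78, 3.78 and 3.02 log2 CPM in set A and -1.66, -1.0 and -0.20 in set B. Its set B values rest on few reads, so the size of this difference is loosely measured. Kcnc2 was lower in set A by 1.73 on the log2 scale, Kcnj6 by 1.20 and Kcnh7 by 1.19, while Kcns3, a silent subunit, was higher by 0.99 and Kcnh4, an ELK-type gene, by 0.81. Of the 10 silent subunits 5 were higher and 0 lower in set A without overlap, of the 17 Kv1 to Kv4 pores 2 higher and 6 lower, and of the 15 inward rectifiers 1 higher and 5 lower. The 5 Kv7 genes overlapped between the sets. Summed markers of cortical excitatory neurons were 393, 198 and 460 CPM in set A and 589, 479 and 896 CPM in set B, and the part of tissue composition in these differences was not tested.

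**Figure D2:**
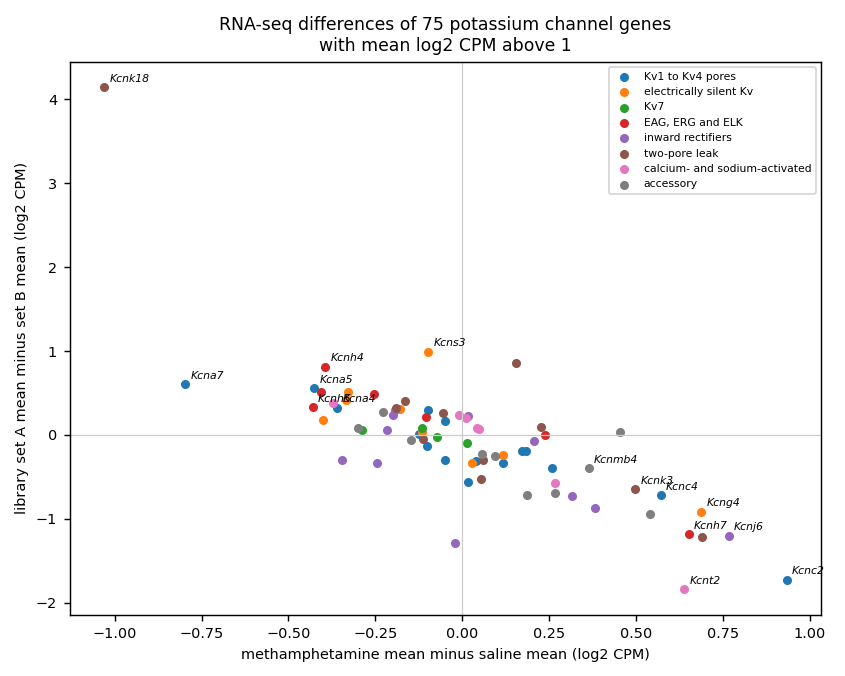
Log2 difference between library sets (set A minus set B) against the log2 change after methamphetamine for the 75 potassium channel genes with a mean above 1 log2 CPM, 1 point per gene. Set differences span a wider range than treatment changes, which follows from defining the sets by the main variation of the same RNA values. Genes lower in set A tend to lie at higher treatment values, as the 2 axes share libraries: set B holds 2 of the 3 methamphetamine pools.

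Single libraries also stood apart. Kcng4, a silent subunit, reached 5.37 log2 CPM in methamphetamine replicate 1 against 2.87 or less elsewhere, and Kcnip1, a partner of A-type channels, reached 4.81 in the same library against 3.36 or less. These were the 2 of 75 genes above 1 log2 CPM in which 1 library lay at least 1 log2 unit above the other 5, beside 0.834% of all genes. In the same library the interneuron marker Pvalb stood at 7.84 log2 CPM, against 5.48 or less elsewhere, and the thalamic marker Prkcd at 6.10, against 3.81 or less. Each was picked from a list of 4 markers after its values were seen. The summed interneuron list stood at 619 CPM in that library and at 604 CPM in methamphetamine replicate 3, against 323 to 383 CPM elsewhere. The summed thalamic list, which includes Prkcd, stood at 103 CPM against 27.2 to 39.4 CPM. The part of these markers in the levels of Kcng4 and Kcnip1 was not tested. Kcnj13, an inward rectifier of epithelia that is itself one of the choroid plexus markers, had 4.09 log2 CPM (74 reads) in methamphetamine replicate 2 and 0.58 or less in every other library. Its level moved with the summed choroid plexus markers of that library, and their part in it was not tested.

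Other genes of potassium handling and of the partners of these channels were read from a list of 32 genes: among them sulfonylurea receptors, HCN channels, Kv4 and Kv1 partners, BK gamma subunits, G protein and RGS genes of GIRK control, subunits of the sodium-potassium pump and chloride cotransporters. None was called by limma at an adjusted p below 0.05 and none had an unadjusted p below 0.05, with 22 higher and 10 lower after methamphetamine. Gnb5, a G protein beta subunit that works with RGS proteins, was the 1 gene of the list with groups that did not overlap, at 7.94, 7.82 and 7.94 log2 CPM after saline and 7.74, 7.79 and 7.68 after methamphetamine. Over all genes 2.44% lay wholly above and 3.58% wholly below. The library sets did not overlap for 18 of the 32, with 4 higher in set A (18.9% of all genes) and 14 lower (19.9% of all genes).

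Reads at potassium channel positions made up 0.932% of all CLIP reads (0.806% to 1.02% by library) from 1.08% of positions. Introns held 88.8% of these reads and 84.9% of the positions. The 10 genes with the most CLIP reads held 63.2% of the reads: Kcnq5, Kcnh7, Kcnd2, Kcnma1, Kcnip2, Kcnab1, Kcnip1, Kcnq3, Kcnip4 and Kcnt1. These are sums over a gene, not per length.

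Kcnq5 had 1797, 905 and 1581 CPM after saline and 618, 1874 and 1562 after methamphetamine (CPM scaled by TMM, a normalization to effective library size). Kcnh7 followed at 1513, 903 and 1233 against 706, 1566 and 1305. In both, saline replicate 2 and methamphetamine replicate 1 were the lowest and the groups overlapped. Kcnd2 had 857, 558 and 612 against 576, 631 and 447, and Kcnma1 631, 1043 and 499 against 445, 575 and 463. Kcnip2 had 482, 547 and 551 against 758, 625 and 526. The beta subunit gene Kcnab1 (530, 364 and 319 against 776, 388 and 374) and the M-current gene Kcnq3 (264, 250 and 174 against 703, 204 and 301) each had their highest value in methamphetamine replicate 1. Of the other A-type partners, Kcnip1 had 443, 366 and 362 against 247, 368 and 496, and Kcnip4 346, 337 and 263 against 234, 332 and 161. Kcnt1 had 317, 226 and 269 against 192, 277 and 372. The treatments overlapped in all 10 genes.

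In several of these genes 1 position carried most of the reads. The Kcnq5 position at chr1:21702004-21702103 (minus strand, intron) had 1227, 294 and 2115 reads in saline libraries and 395, 1480 and 747 in methamphetamine libraries, and it held 78.4% of the gene's reads. The Kcnh7 position at chr2:63117515-63117614 (minus strand, intron) had 1238, 252 and 1580 reads against 462, 1299 and 411, and held 75.2%. The 2 positions together held 20.8% of all potassium channel reads, and neither is in the authors' lists. The same held for Kcnip1, where 1 unlisted intronic position had 97.7% of the reads, and for Kcnip4 with 82.9%. At Kcnh8, an ELK-type gene, the single position (chr17:52862510-52862609, plus strand, intron) is in both lists and had 180, 85 and 241 reads against 112, 156 and 128. By contrast the highest position of Kcnip2 held 14.3% of its reads and that of Kcnq3 9.23%. Listed positions held 22.0% of the potassium channel reads, against 26.4% of all CLIP reads.

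**Figure D3:**
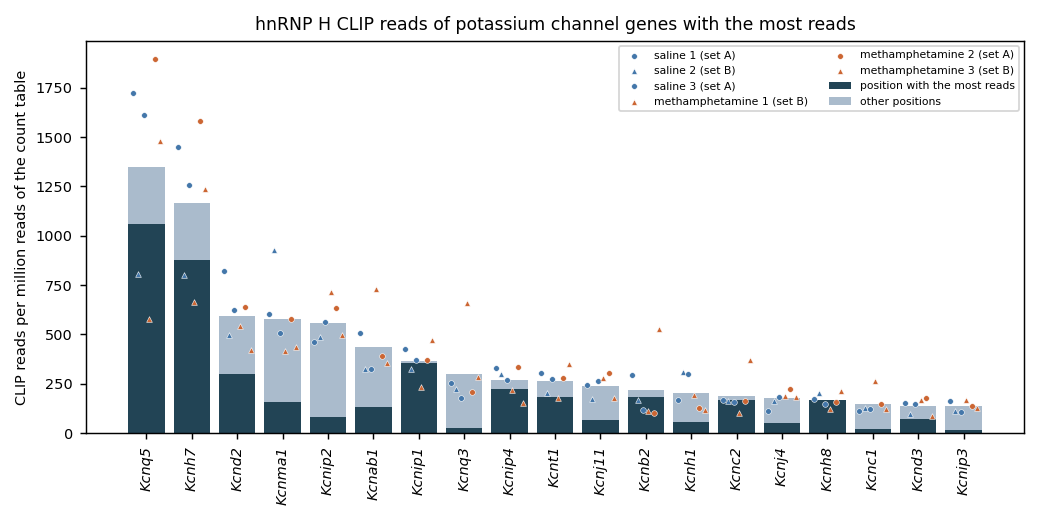
CLIP CPM, scaled to the reads of the count table (vertical axis), for 19 of the potassium channel genes with the most reads. Bars are means over 6 libraries, split into the position with the most reads (dark) and the others (light), and points are libraries. Kcnq5 and Kcnh7 stand highest, mostly through 1 position, while Kcnip2 and Kcnq3 are spread over many.

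The exonic share of CLIP reads differed widely between genes. It was 90.8% in Kcna2, 76.8% in Kcna1 and 67.5% in Kcna4, Kv1 genes whose coding sequence sits in a single exon, and 45.1% in Kcnj4. It was 35.2% in Kcnip2 and 6.04% in Kcnma1, and 0 in Kcnd2 and Kcnq5, whose genes span 514303 and 563540 nt.

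Kcnip2 and Kcnj11 had neighbouring positions with many reads. Clusters were taken as runs of positions of at least 8 CPM no more than 500 nt apart around the gene's highest position, a rule chosen after the counts had been seen. In Kcnip2 a stretch of 1.4 kb, chr19:45795640-45797039, held 12 of the gene's 96 positions and 60.2% of its reads (51.1% to 70.4% by library). It includes 5 listed positions, among them the 2 intronic ones printed above and chr19:45796240-45796339, which holds the printed Kcnip2 window without GGG. In Kcnj11, the pore of the ATP-sensitive channel, a stretch of 0.5 kb, chr7:46100054-46100553, held 5 of 7 positions and 95.8% of the reads (91.8% to 98.4% by library). It has 4 listed positions, 1 of which holds the printed 5′ UTR window. In every library these stretches held most of the gene's reads.

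**Figure D4:**
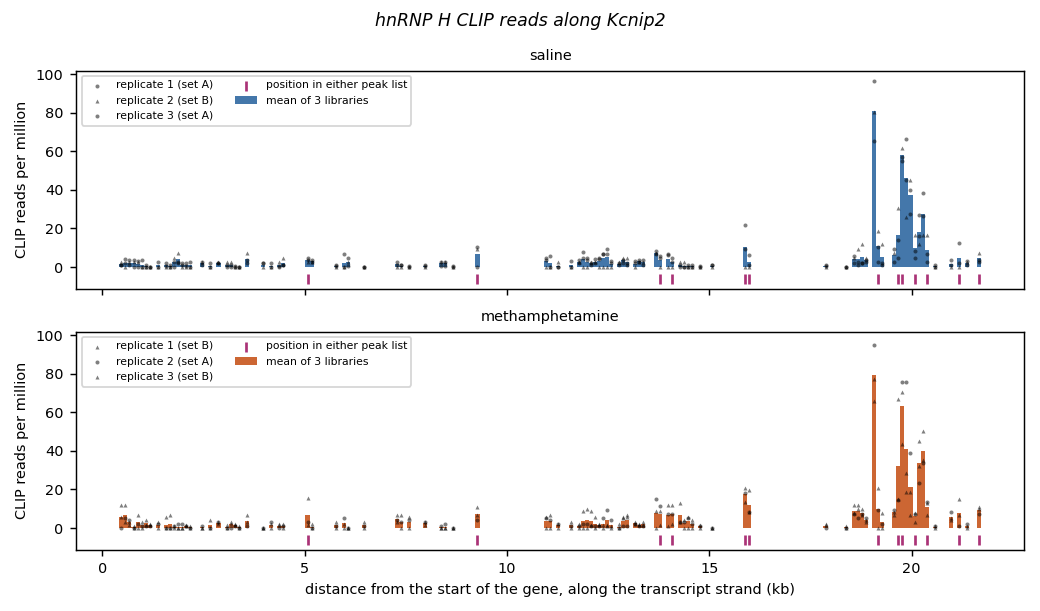
CLIP CPM at each position of Kcnip2 (vertical axis) against the distance from the start of the gene along the transcript (kb), with saline above and methamphetamine below. Bars are means of 3 libraries, points are libraries and ticks mark positions in either list. The stretch of 1.4 kb, chosen by its CPM, holds the highest positions of the gene, and some positions within it are lower than the highest outside it.

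The authors' lists held 86 potassium channel positions on the gene's own strand for methamphetamine, of 9903 in all, and 77 for saline, of 9537. By symbol alone the counts were 87 and 83, since 1 and 6 positions lay on the opposite strand and were named for another gene. Each list covered 41 of the genes, with 32 genes in both and 9 in each list alone. Each list thus covered 44.1% of the 93 genes, against 27.0% and 27.3% of all 18208, and the genes in both made up 64.0% of those in either list, against 48.7% over all genes. Of the 86 positions, 42 met a position of the saline list by at least 1 bp (48.8%, against 48.7% of all methamphetamine positions), and 42 of the 77 met the other list (54.5%, against 50.0% of all saline positions). One list was deposited per treatment, so replicates cannot be compared within them.

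Most listed positions were intronic, 64 of 86 (74.4%) for methamphetamine and 57 of 77 (74.0%) for saline, against 68.3% and 72.8% of all positions. The remainder fell in 3′ UTRs (10 and 9), 5′ UTRs (6 and 5) and coding exons (6 and 6). Kcnip2 had the most distinct listed positions, 14, followed by Kcnd2, Kcnma1 and Kcnt1 with 6 each and Kcnip3, Kcnj11, Kcnq3 and Kcnh1 with 5 each. Kcnh7, Kcnip1 and Kcnip4 had none. After the Kcnh8 position, the methamphetamine list was led by mean CPM by an intronic Kcnq5 position, chr1:21834004-21834103 (minus strand), with 242, 9 and 136 reads in saline libraries and 30, 148 and 61 in methamphetamine libraries. Next came an intronic Kcnj11 position of the cluster, chr7:46100254-46100353 (91, 17 and 133 against 72, 91 and 20). After it came a Kcnip2 position of its cluster typed as both coding and intron, chr19:45796240-45796339 (60, 26 and 90 against 64, 74 and 26), which is in both lists. An intronic Kcnd2 position, chr6:21424304-21424403 (plus strand), had 93, 13 and 65 against 35, 69 and 20. All 4 also had reads in every saline library.

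Of the 50 listed genes 21 had a listed position outside introns, among them Kcna1, Kcna2, Kcna4, Kcna5, Kcnc1, Kcnc2, Kcnip2, Kcnip3, Kcnj3, Kcnj4, Kcnj8, Kcnj11, Kcnj13, Kcnj16, Kcnk3, Kcnk9, Kcnma1, Kcnq3 and Kcns2. They include Kv1 and Kv3 pores, GIRK, KATP and strong inward rectifiers, and acid-sensitive two-pore channels. The Kcnma1 coding position had 35, 26 and 33 reads in saline libraries and 31, 32 and 17 in methamphetamine libraries, and is in both lists. The Kcna4 coding position had 8, 2 and 24 reads against 23, 4 and 3. The Kcnj13 position without GGG had 3, 0 and 8 against 2, 11 and 3 reads and is also in both lists, as is the Kcna4 position. Kcnj13 had 74 RNA reads in methamphetamine replicate 2 and few elsewhere. Counts this low limit what can be read from single positions.

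Positions that lay within an annotated exon could be searched for GGG on the transcript strand. It was present in 12 of 19 potassium channel positions of the methamphetamine list (63.2%), against 81.3% of 2953 positions over all genes, and in 11 of 18 of the saline list (61.1%), against 82.3% of 2375. The longer run GGGG, a match to which is also a match to GGG, was present in 52.6% and 50.0%, against 49.1% and 49.8% over all genes. The numbers of searched positions were small, and most listed positions, being intronic, were not searched.

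Listed positions were set against the counts of the same libraries. Of the 41 potassium channel positions listed for methamphetamine alone, 28 (68.3%) had a higher mean CPM after methamphetamine, against 79.7% of all such positions. Of the 34 listed for saline alone, 9 (26.5%) had, against 16.1%. In 9 of 117 counted listed positions (7.69%, against 6.36% of all) more than 80% of the CPM came from 1 library. A Kcnb2 position of the saline list, chr1:15581655-15581754 (plus strand, intron), had 196, 0 and 0 reads in saline libraries and 0, 2 and 0 in methamphetamine libraries. A Kcnma1 position of the saline list, chr14:23468732-23468831 (minus strand, intron), had 9, 119 and 17 against 5, 19 and 5. The Kcnh1 position at chr1:192339775-192339874 (plus strand, intron), in both lists, had 6, 86 and 8 reads against 51, 3 and 12.

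No potassium channel position differed in CLIP reads between the treatments at an adjusted p below 0.05 (edgeR quasi-likelihood test, Benjamini-Hochberg over the 10358 positions that passed a count filter, 89 of them in potassium channel genes). The same test called 0% of all positions. At an unadjusted p below 0.05 there was 1 of 89 (3.35% of all positions), the Kcnd3 position chr3:105468831-105468930 (plus strand, intron), listed for methamphetamine alone. DESeq2 called 0 as well, with 1 at an unadjusted p below 0.05 (3.37% of all positions). Kcnd3 encodes an A-type pore, and the position had 9, 0 and 8 reads in saline libraries and 15, 13 and 13 in methamphetamine libraries, a log2 change of 2.02 ± 0.74 (approximate SE; edgeR, unadjusted p = 0.0279). Methamphetamine libraries all lay above saline libraries at 3 of 89 positions (4.33% of all) and all below at 1 (3.62% of all). With a replicate left out more positions passed the count filter. The unadjusted count was then 10 of 120 without methamphetamine replicate 2 (8.42% of all positions), 6 of 128 without saline replicate 2 (7.02%) and 4 of 120 without saline replicate 1 (2.42%). It was 2 of 122 without saline replicate 3 (3.52%), 1 of 118 without methamphetamine replicate 1 (2.08%) and 1 of 129 without methamphetamine replicate 3 (2.23%). With library set as a covariate the Kcnd3 position had an unadjusted p of 0.0628 (edgeR).

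The others in which the groups did not overlap lay in genes described above. A Kcnj4 UTR position, chr15:79484015-79484114 (minus strand), had 36.2, 35.8 and 79.5 TMM-scaled CPM after saline and 109, 89.1 and 86.1 after methamphetamine (log2 change 0.88 ± 0.44). Kcnj11 chr7:46100154-46100253 (minus strand, UTR), within its cluster, had 78.0, 75.2 and 87.6 against 117, 107 and 93.7. The highest Kcnd2 position, chr6:21608904-21609003 (plus strand, intron), was lower, at 458, 455 and 482 CPM against 278, 397 and 334 (-0.47 ± 0.30). A Kcnip2 position in the cluster, chr19:45795840-45795939, had 19.2, 17.9 and 32.4 against 59.7, 27.7 and 68.4 (1.11 ± 0.51), with groups that overlapped. Kcnh1 chr1:192408875-192408974 (intron), listed for methamphetamine alone, had 68.9, 50.2 and 199 against 37.0, 54.2 and 45.6 (-1.23 ± 0.57), and Kcnip4 chr5:49524403-49524502 38.4, 14.3 and 17.7 against 14.4, 16.9 and 2.53 (-1.02 ± 0.70). In these last 2 positions the treatments overlapped and every set A library lay above every set B library. None passed the adjusted threshold.

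Summed over genes, 55 potassium channel genes passed the filter, 31 higher and 24 lower after methamphetamine (4286 and 3899 over all genes). Without methamphetamine replicate 3 the split was 25 higher and 34 lower of 59. None was called (edgeR, adjusted p below 0.05; 0% of 8185 genes). At an unadjusted p below 0.05 there was 1 of 55 (5.24% of all genes), Kcnk1, with 3.96, 7.96 and 7.19 TMM-scaled CPM after saline and 25.8, 11.1 and 16.0 after methamphetamine (log2 change 1.49 ± 0.59, unadjusted p = 0.0324). Its reads numbered 4, 3 and 12 against 22, 11 and 9, and none of its 16 positions is in either list. All methamphetamine libraries lay above all saline libraries in 3 genes (4.91% of all genes), Kcnk1, Kcnh4 and Kcnj4, and below in 0 (4.69% of all genes). Kcnh4 had 30.7, 26.6 and 28.2 against 81.9, 36.4 and 44.3, and Kcnj4 118, 181 and 182 against 203, 219 and 193. Kcnk1 had the lowest CLIP level of the 3. Its unadjusted p with library set as a covariate was 0.0964 (edgeR). With only listed positions summed, Kcnk1 had no reads to test. The 27 genes tested were then 13 higher and 14 lower. The 1 at an unadjusted p below 0.05 was lower after methamphetamine (edgeR, beside 5.37% of all genes). With all positions summed, the unadjusted count was 3 without saline replicate 2 (7.49% of all genes) and 3 without methamphetamine replicate 2 (10.1%). It was 1 without saline replicate 1 (3.48%), saline replicate 3 (4.49%) or methamphetamine replicate 1 (2.49%). In each of these fits the 1 gene was lower after methamphetamine, so it was not Kcnk1. The count was 0 without methamphetamine replicate 3 (2.79%) and 0 by DESeq2 (4.91%), which called 0 genes as well.

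CLIP signal, summed over a gene's positions whether listed or not, was then set against the RNA of the same pool. The measure was log2 CLIP CPM minus log2 RNA CPM. Over 55 potassium channel genes in both assays, no change after methamphetamine was called (limma, adjusted p below 0.05; 0% of 7025 genes), and 1 gene had an unadjusted p below 0.05 (2.99% of all genes), again Kcnk1 (1.29 ± 0.50). That count was 4 without saline replicate 2 (5.01% of all genes), 3 without methamphetamine replicate 2 (6.98%) and 0 without any other replicate (2.16% to 3.12%). The median level of this difference over potassium channel genes was 0.41, against 0.22 over all genes. The distance between these medians ran from -0.12 in saline replicate 3 to 0.51 in saline replicate 2, so it was not in the same direction in every library.

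Genes with little RNA and much CLIP signal stood at the top: Kcnh8 (8.45), Kcnv2 (6.80), Kcnh7 (6.04), Kcnq1 (5.89), Kcnj5 (5.41), Kcnip1 (5.39) and Kcnu1 (5.22). Kcnh8 ranked 59 of 7025 genes, with a mean RNA level of -0.99 log2 CPM. Kcnh7 had a mean RNA level of 4.14 and a CLIP level of 10.18, both on the log2 CPM scale. At the other end were Kcnk1 (-3.06), Kcnh3 (-2.79) and Kcnab2 (-2.14), genes with high RNA levels. Values per library for Kcnh8 ran from 7.57 to 10.33 and for Kcnk1 from -3.99 to -2.15. The Kcnh8 values rest on 0 to 5 RNA reads per library. Mean RNA levels were also low for Kcnv2 (-1.19 log2 CPM), Kcnj5 (-0.25) and Kcnq1 (0.42). Their values per library ran from 5.78 to 8.74, 3.96 to 8.44 and 4.39 to 7.02, so they are loosely measured as well. Over the 81 genes with a counted position, CLIP CPM had a Spearman correlation of 0.60 with the gene's span, 0.60 with exon length and 0.52 with RNA level. These correlations describe genes that share the same libraries and depth.

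**Figure D5:**
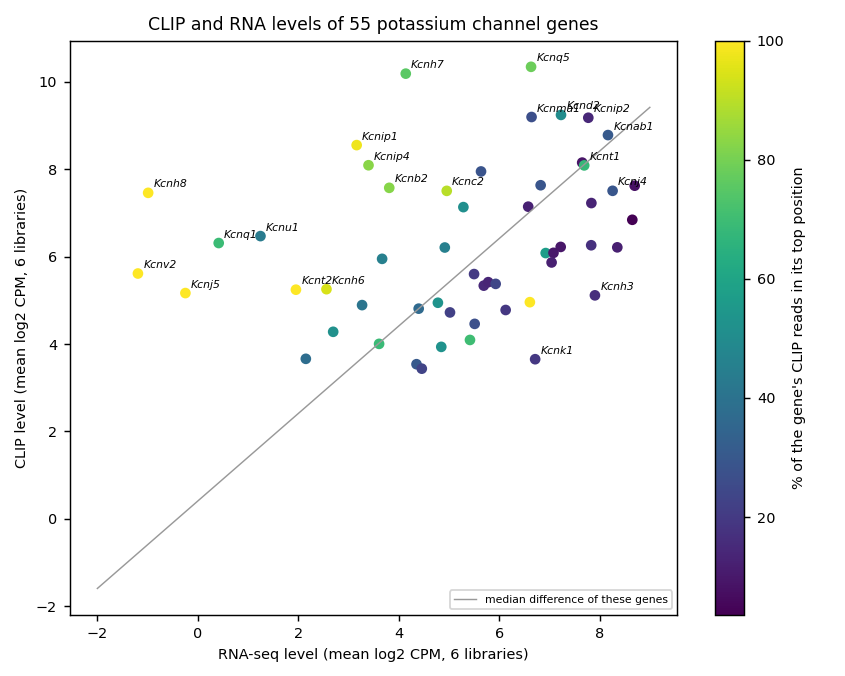
CLIP level (log2 CPM summed over a gene's positions) against RNA level (log2 CPM) for potassium channel genes, 1 point for each of 55 genes and each value a mean over 6 libraries. The line marks the genes' median difference (0.41) and colour the share of a gene's CLIP reads in its top position; Kcnh8, Kcnv2 and Kcnh7 lie far above the line and Kcnk1 and Kcnh3 below it.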

How the data were processed

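CLIP-seq of hnRNP H and RNA-seq were deposited for 3 saline and 3 methamphetamine pools. RNA values are log2 CPM (voom) computed by the authors. CLIP values are read counts that the authors deposited for each position. In the deposited peak lists, the signal is a score per position, and its p-value or q-value is the authors' own. The submitters' processing notes name Trimmomatic, UMI-tools, STAR, bedtools, Subread, featureCounts, limma, edgeR and the mm10 build, with no role or version. The count table has 172271 lines for 147438 distinct positions, each used once.

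All RNA values (100%) gave whole reads within 0.01 once inverted, and depth was taken from these. RNA changes, and log2 CLIP minus log2 RNA, were fitted over all genes with limma 3.58.1. CLIP counts were tested with edgeR 4.0.16 (quasi-likelihood, TMM scaling, filter on low counts), with DESeq2 1.42.0 as an alternative, in R 4.3.3. P-values were Benjamini-Hochberg adjusted over all features tested (threshold 0.05). The standard error of an edgeR change was approximated from the fold change and its F statistic. Tables were joined in Python 3.11.15. Regions without a listed type came from GENCODE M21. Fits were tested on simulated data with large planted changes and no library sets, which does not show whether they would find small changes.

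The members and lists were chosen with earlier results of these data known. Genes named were the 3 with the highest RNA level in each class, the 5 with the lowest unadjusted p in each direction, genes of striatal excitability picked by role, the 10 with the most CLIP reads, the leading 5 positions of each list, the 3 positions with the lowest unadjusted p in each direction, and genes listed outside introns or most often. Genes named for library sets, single libraries, CLIP over RNA or clusters were chosen after their values were seen. Some genes that these rules name are not reported here. The rules for clusters, for positions or genes that rest on 1 library and for listed positions against counts were chosen after the counts were seen. Alternatives were other scaling, pseudocounts, filters, tools, overlaps, a library set covariate, a replicate block and each replicate left out.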

Additional observations from a re-analysis of the deposited data

How the results depend on the processing

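No potassium channel gene or position passed the adjusted threshold in any of the 4 fits when any 1 replicate was left out (0 to 0 calls) or with the replicate block. With no filter on low CLIP counts edgeR called 4 of 1585 potassium channel positions (406 of 147438 over all genes), all lower after methamphetamine. They are in Kcnb2 (196, 0 and 0 reads after saline, 0, 2 and 0 after methamphetamine), Kcnq3 (0, 23 and 4, then 0, 0 and 0), Kcnn2 (26, 0 and 126, then 0, 7 and 0) and Kcnh1 (19, 0 and 102, then 0, 6 and 0), each mostly reads of 1 saline library. Keeping only listed positions with a signal at or above the list median, 37.5% of the methamphetamine list met the saline list, against 48.8% (Wilson 95% interval 38.6% to 59.2%). Over all genes the same filter gave 43.2%, against 48.7%. The other 61 recomputed values of the main results stayed within 1.5 times or their spread. Each of the 24 genes whose RNA change was recomputed singly kept its direction in 310 of 310 alternative fits. The limma fits that changed only the level filter, the variance model or the replicate block leave the group difference as it is. Their agreement in direction was therefore fixed in advance. The 24 also include the genes picked for the lowest unadjusted p in each direction. The distance between the medians of CLIP minus RNA was 0.20 to 0.30 with 1 replicate left out. Same-numbered pools deviated from their group means in opposite directions (correlations -0.346, -0.821 and -0.489 for RNA, and -0.368, -0.549 and -0.082 for CLIP). For each number 1 pool is in set A and 1 in set B. Whether the numbers mark anything shared was not tested. With the replicate block the counts at an unadjusted p below 0.05 were 1 for RNA (0.791% of all genes) and 1 for CLIP positions (1.23% of all positions). They were 0 for CLIP genes and 0 for CLIP over RNA (2.22% and 1.98% of all genes). With library set as a covariate 0 were called in all 4 fits. The counts at an unadjusted p below 0.05 were then 3 for RNA (2.97% of all genes) and 1 for CLIP positions (2.52% of all positions). They were 1 for CLIP genes and 1 for CLIP over RNA (4.02% and 4.78% of all genes). The CLIP position and the CLIP gene were lower after methamphetamine, so neither was the Kcnd3 position or Kcnk1. Depth limits single positions: 71 of 1585 had over 3 reads in every library.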
